A study of Mus musculus with 10 samples.

Results

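The Hox genes encode homeodomain transcription factors that give cells their position along the head-to-tail axis and, in the limb, along its length. They lie in 4 clusters, HoxA to HoxD, within which genes of like number are paralogues. Genes of low number are used towards the head and in organs such as the lung, and genes of high number towards the tail and in the limb. Cells of adult tissue, fibroblasts among them, keep a Hox pattern that reflects where in the body they arose, with Polycomb complexes holding unused genes silent and Trithorax complexes keeping used ones active. Several noncoding transcripts are read from the opposite strand of the same clusters. Some of them share exon sequence with the coding genes.

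All genes named Hoxa, Hoxb, Hoxc or Hoxd with a number, their antisense transcripts named with the ending os or with as and a number, and Hotair, Hotairm1 and Hottip were taken by symbol. The count files held 47 of these among 38293 gene identifiers, of which 38 are coding and 9 are noncoding (Hotairm1, Hoxaas2, Hoxaas3, Hoxa11os, Hottip, Hoxb5os, Hoxb3os, Hotair and Hoxd3os1). Hoxd4 had no row in the files and is not analysed here. Strand-specific libraries of total RNA freed of ribosomal RNA were sequenced in 10 samples. Mouse embryonic fibroblasts (MEF) from wild-type C57BL/6J mice were left untreated (n = 2) or given 1 µM CBL0137 for 24 hr (n = 2), and MEF from Trp53tm1Tyj (p53-/-) mice, which lack the tumor suppressor p53, were left untreated (n = 1) or treated likewise (n = 1). Whole lungs came from NIH Swiss mice 7 weeks old, wild type for p53, and were collected 24 hr after a single intravenous dose, which was 5% dextrose as vehicle in 2 mice and CBL0137 at 60 mg/kg in 2 mice. CBL0137 is a curaxin, a small molecule that binds DNA without damaging it chemically and loosens nucleosomes. MEF are a mixed culture of cells grown out of whole embryos. The sex of the lung mice is given differently in the sample labels (female) and the design text (male).

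Only 0.789% to 1.16% of the reads in each file were counted on genes, which left 16579 to 538717 gene counts per library. The lowest total was vehicle lung replicate 2, where 1 count is worth 60.3 CPM (counts per 1000000 gene counts), and the highest was CBL0137-treated p53-/- MEF, where it is worth 1.86. The strand setting of the counting is not given in the sources used here. Over the whole table, genes with an exon overlapped by an exon on the other strand had 43.8 counts per kb of exon and all others 6.99. Values are therefore given as counts listed under an identifier, in CPM, and not as the amount of RNA of that strand. Listed fibroblast markers summed to 260 to 1094 CPM in MEF and 57.4 to 241 CPM in lung. Lung epithelial markers summed to 0 to 23.2 CPM in MEF and 431 to 784 CPM in lung. For the same reason of strand, a marker list may not read its cell type. Trp53 itself had 0 counts in 8 libraries, 1 in a treated lung and 5 in CBL0137-treated p53-/- MEF, so it could not serve as a check of the genotype. In whole samples, fewer cells of a type and less RNA per cell cannot be told apart.

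The pairs of transcripts that share sequence on opposite strands are shown for the 2 noncoding identifiers with the most counts, since these pairs carry much of what was counted. Hoxa11os, the antisense transcript of the limb and kidney gene Hoxa11, lies on the plus strand at chr6:52244393-52249799 (GRCm38), and 800 bases (26.0%) of its exons lie opposite exon sequence of Hoxa11, 709 of them opposite coding sequence. The first 90 coding bases of Hoxa11 at chr6:52245630-52245719 and the same stretch of Hoxa11os read as follows, with the start codon of Hoxa11 and its complement in capitals.
Hoxa11 (minus strand): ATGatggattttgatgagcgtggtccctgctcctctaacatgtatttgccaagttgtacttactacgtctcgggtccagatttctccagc
Hoxa11os (plus strand): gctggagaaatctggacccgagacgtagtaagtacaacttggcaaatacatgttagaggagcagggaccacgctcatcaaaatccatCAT

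Hoxb3os lies on the minus strand at chr11:96343072-96354691, opposite 2 coding genes of the hindbrain, Hoxb3 and Hoxb2. It shares 2250 exon bases with Hoxb3 and 953 with Hoxb2, which together cover 76.2% of its exons and the part shared with Hoxb2 includes homeobox sequence. The stretch at chr11:96353090-96353179 is shown on both strands around the part of the Hoxb2 homeobox that codes for the DNA-recognition helix. Capitals mark 6 codons of that helix in Hoxb2, and their complement in Hoxb3os. All sequences are those of GENCODE M21 transcripts on GRCm38.
Hoxb2 (plus strand): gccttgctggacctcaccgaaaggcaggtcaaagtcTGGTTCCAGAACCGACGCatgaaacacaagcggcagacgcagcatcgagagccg
Hoxb3os (minus strand, opposite Hoxb2): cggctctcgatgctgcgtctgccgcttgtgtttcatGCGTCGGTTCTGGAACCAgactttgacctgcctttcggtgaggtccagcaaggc

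The 47 identifiers held 2183 counts over the 10 libraries, and the HoxA and HoxB clusters held nearly all of them. HoxA had 1191 counts (54.6%) on 16 members and HoxB 883 (40.4%) on 12, against 89 (4.08%) on 9 members of HoxD and 20 (0.916%) on 10 of HoxC. The 3 members with the most counts, Hoxb3os (707), Hoxa11os (340) and Hoxaas3 (197), are noncoding and together held 56.99%. All 9 noncoding members held 62.1% of the counts on 18.7% of the exon bases. Hoxb13, Hoxb1, Hoxc13 and Hoxc11 had no count in any library, 30 members had 1 to 19 counts in all, and 13 had 20 or more. Few counts were listed under the well-known noncoding RNAs, which does not show whether these RNAs were present. Hotair, read from HoxC and known for its link to Polycomb, had 1 count in each of 2 libraries. Hottip, read from the far end of HoxA and known for its link to Trithorax, had 3 counts in each of 2 libraries. Hotairm1 had 0 to 3 per library.

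Members with an exon overlap on the other strand carried more counts for their length. The 17 such members had 35.2 counts per kb of exon and the other 30 had 5.83, so that 80.5% of the counts lay on 40.6% of the exon bases. Hoxb3os was highest per length, at 168 counts per kb, while the 2 genes opposite it, Hoxb3 (25 counts) and Hoxb2, had 5.88 and 3.44. Hoxa11os had 111 counts per kb and Hoxa11 68.2. Hoxa2, a gene of the hindbrain and the second branchial arch with no annotated exon opposite it, went against this order with 80.0 counts per kb, of which 90 of its 142 counts came from CBL0137-treated p53-/- MEF. This is a description over genes that share libraries. Counts under an identifier such as Hoxa11os or Hoxb3os may be reads of RNA from the coding gene opposite it. Which strand the reads came from was not tested, so these counts are not a measure of antisense RNA.

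**Figure D1:**
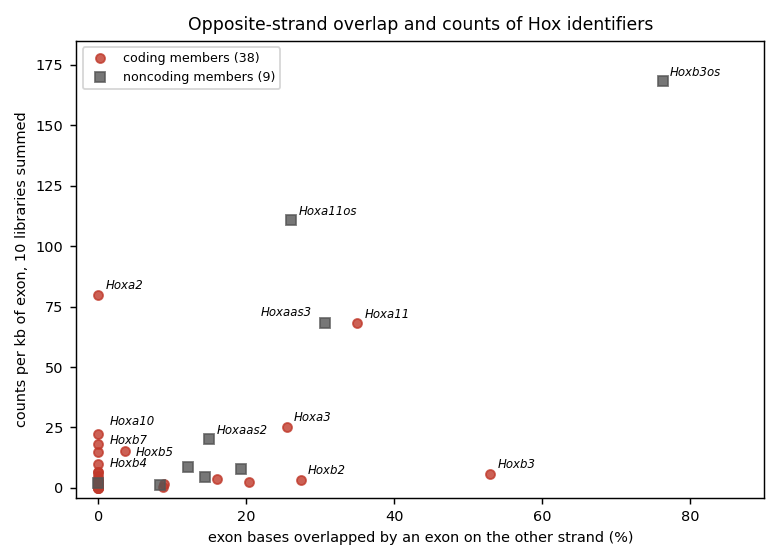
Each point is a Hox identifier, with the percentage of its exon bases that are overlapped by an exon on the other strand on the x axis and its counts per kb of exon, summed over 10 libraries, on the y axis. Hoxb3os stands highest with 76.2% overlap and 168 counts per kb, and Hoxa2 is the highest member without overlap.

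The clearest difference was between MEF and lung at the 5′ end of HoxA. Hoxa11os was listed at 248 and 271 CPM in untreated wild-type MEF and 281 and 193 CPM in treated ones, and at 0 in each of the 4 lung libraries. It had 158 counts in the 4 wild-type MEF libraries against 0 of 642278 gene counts in lung, which allows up to 4.67 CPM. Its pooled share in these MEF libraries was 50.4 times that bound (edgeR's quasi-likelihood test over all genes, adjusted p = 3.60e-06). Hoxa11, which patterns the forearm, kidney and uterus, was listed at 65.6, 83.3, 59.2 and 43.7 CPM in the same MEF libraries and at 4.98, 0, 0 and 0 CPM in lung, where it had 1 count in all. Its log2 fold change was 5.13 ± 0.85 (SE, edgeR adjusted p = 0.000572), and the MEF and lung values of both identifiers were far apart. Without the shallow vehicle library, the log2 fold changes of Hoxa11os and Hoxa11 were 8.52 and 5.04. Both identifiers passed the count filter only through the MEF libraries, so their adjusted p are a description of this difference. Tissue, mouse strain and cell culture differ together between these groups and cannot be told apart.

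Of the 47 members, 6 had enough counts for the test between wild-type MEF and lung and 3 passed it, all higher in MEF, where 36.8% of 2899 genes tested passed in either direction and 19.6% were higher in MEF. Hoxa11os and Hoxa11, with 0 and 1 count in lung, entered the test only through the MEF libraries, so the count of 3 and the median log2 fold change of 0.94 over these 6 (0.11 over all genes tested) are a description. The third was Hoxaas3, which lies opposite the last exon of Hoxa7 and the first exon of Hoxa3, at 139, 130, 29.6 and 128 CPM in MEF and 49.8, 121, 22.1 and 65.6 CPM in lung. The groups overlapped, the log2 fold change was 1.40 ± 0.48 (SE, edgeR adjusted p = 0.0341), and the call was lost in 11 of 14 alternative settings. With the second CBL0137-treated wild-type MEF library left out, it was 0.31 (adjusted p = 0.786). The 5′ neighbour Hoxa10, a gene of the hindlimb and uterus, had 10 counts in wild-type MEF (7.29, 10.4, 14.8 and 21.9 CPM) and 0 in lung. Its pooled share in MEF was 3.19 times the lung floor of 3 counts, on too few counts to be tested in these 8 libraries.

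**Figure D2:**
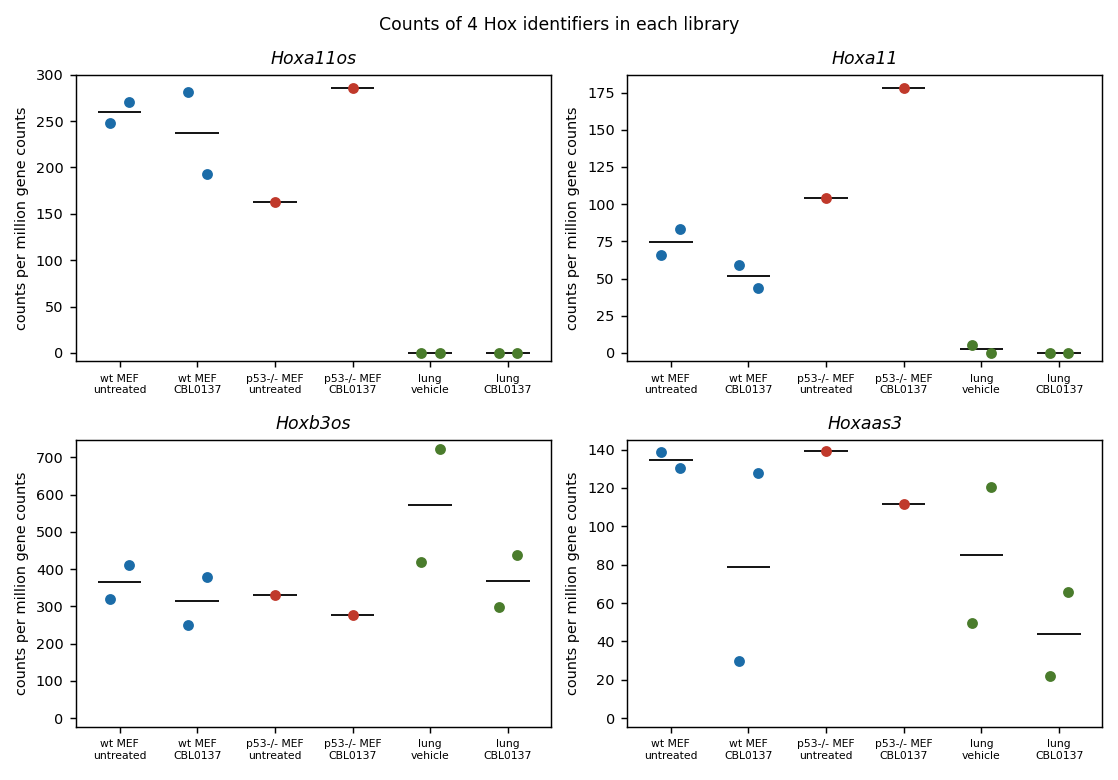
CPM, counts scaled to a fixed total of gene counts, of Hoxa11os, Hoxa11, Hoxb3os and Hoxaas3, with a point for each library and a line for the mean of each group (wt, wild type). Hoxa11os is at 0 in the 4 lung libraries and at 162 to 286 in the 6 MEF libraries, while Hoxb3os is at 252 to 724 in all 10.

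Hoxb3os did not separate the tissues. It was listed at 321, 412, 252 and 379 CPM in wild-type MEF and at 418, 724, 298 and 439 CPM in lung, where the highest value came from 12 counts in the shallow vehicle library. Its log2 fold change between MEF and lung was −0.03 ± 0.27 (SE, edgeR adjusted p = 0.947), the highest p of the 6 members tested. Hoxa3, needed for thymus and parathyroid, was at 36.5, 31.3, 74.0 and 40.1 CPM in wild-type MEF and 110, 0, 38.7 and 69.7 CPM in lung (log2 fold change −0.51 ± 0.49, edgeR adjusted p = 0.457). Hoxa2 was at 14.6, 31.3, 133 and 25.5 CPM in MEF and 39.8, 60.3, 16.6 and 32.8 CPM in lung (0.48 ± 0.66, edgeR adjusted p = 0.619). In both genes the ranges of the tissues overlapped.

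The coding genes showed the same split when added up by paralogue number, a grouping chosen after the values were seen and so given without a test. The 16 coding members of groups 9 to 13, used in the hind body and the limb, had 61 counts in the 4 wild-type MEF libraries (80.2 to 115 CPM) and 4 in the 4 lungs (0 to 16.6 CPM). Of those 61 counts, 41 were on Hoxa11. The 14 members of groups 1 to 5 had 87.5 to 237 CPM in MEF and 60.3 to 239 CPM in lung, so the ranges lay over each other. The 8 members of groups 6 to 8 had 14.8 to 32.8 CPM in MEF and 0 to 38.7 CPM in lung. All Hox members together made up 988 ± 69.5 CPM (SD, n = 4) in wild-type MEF and 770 ± 136 CPM (SD, n = 4) in lung, a log2 ratio of 0.36. Each of these means and SD takes control and CBL0137-treated libraries together.

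**Figure D3:**
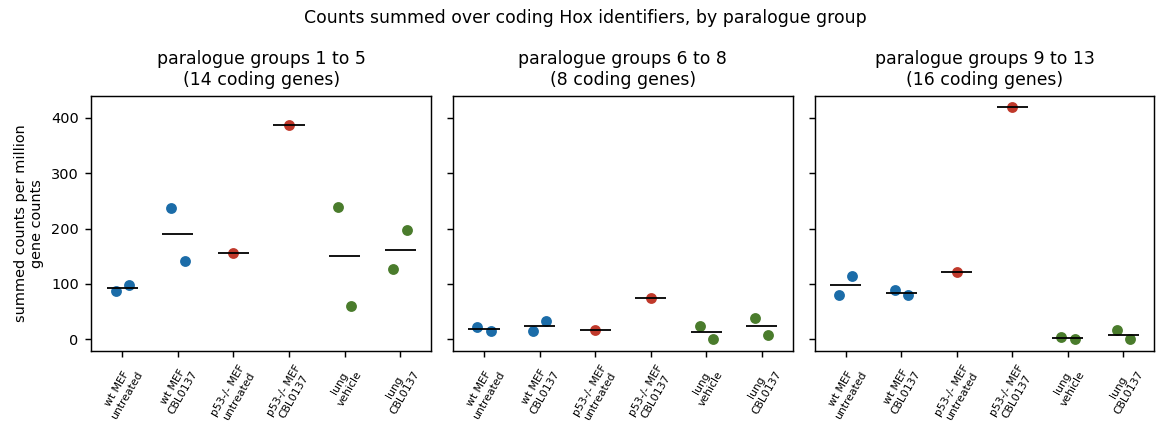
Summed CPM of the coding Hox members of paralogue groups 1 to 5, 6 to 8 and 9 to 13, with a point for each library and a line for the mean of each group. Groups 9 to 13 lie between 80.2 and 115 in wild-type MEF and between 0 and 16.6 in lung, and the highest value in each panel is CBL0137-treated p53-/- MEF, at 388, 74.3 and 420.

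The members left with 20 or more counts were mostly spread over both tissues. Hoxb4, known for its effect on blood stem cells, was at 14.6, 10.4, 0 and 14.6 CPM in wild-type MEF and 44.8, 0, 16.6 and 24.6 CPM in lung. Hoxb3 was at 0, 10.4, 14.8 and 3.65 CPM in MEF and 24.9, 0, 11.05 and 32.8 CPM in lung. Neither was tested, and their ranges overlapped. Hoxb5, which acts in lung branching, was at 7.29, 0, 14.8 and 47.4 CPM in MEF and 9.96, 0, 22.1 and 16.4 CPM in lung. Hoxb7 was at 7.29, 0, 0 and 10.9 CPM in MEF and 4.98, 0, 11.05 and 4.10 CPM in lung. Hoxaas2, which lies opposite the last exon of Hoxa3, was at 7.29, 15.6, 14.8 and 40.1 CPM in MEF and 44.8, 0, 44.2 and 69.7 CPM in lung, with 3 of 4 lung values above all MEF values. Hoxa5, which the developing lung needs, had 1 count in all in lung and 1 in wild-type MEF, so it was not detectable above the floor of 3 counts in either.

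CBL0137 changed no Hox member past the test in wild-type MEF. Of 4 members tested none passed, where 8.48% of 1757 genes did, and none of the 4 had an unadjusted p under 0.05, with 0 called by DESeq2 too. The 149 genes behind that share became 57 with DESeq2, and 2 or 0 when either untreated library was left out, while no member was called in any of these. Each of the 4 estimates was below 0 on the log2 scale: Hoxa11 −0.74 ± 0.44, Hoxaas3 −0.56 ± 0.54, Hoxa11os −0.28 ± 0.29 and Hoxb3os −0.26 ± 0.28 (SE, n = 2 in each group, lowest edgeR adjusted p = 0.326). For Hoxa11 the treated values of 59.2 and 43.7 CPM both lay below the untreated 65.6 and 83.3, on 4 to 16 counts a library. For Hoxaas3 the treated 29.6 and 128 CPM also lay below the untreated 139 and 130, on 2 to 35 counts. For Hoxa11os and Hoxb3os the treated range overlapped or enclosed the untreated one. Of named members with too few counts to test, Hoxa3, Hoxa10 and Hoxb5 had each treated value above each untreated one. Their untreated and treated counts were 11 and 16, 3 and 7, and 1 and 14. Hoxd3os1 went the other way, on 7 and 1 counts. Summed over coding members the share was 209 ± 28.02 CPM untreated and 298 ± 60.2 CPM treated (SD, n = 2 each). Both treated values, 340 and 255 CPM, lay above the untreated 190 and 229 CPM, which was not tested. Noncoding members summed to 801 ± 60.5 and 668 ± 128 CPM (SD, n = 2 each), so that all members together gave a log2 ratio of −0.07.

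In lung none of 3 tested members passed, nor did any of the 2377 genes tested with edgeR (percent called 0.0), of which 74 had an unadjusted p under 0.05, and DESeq2 called 0. Without the second CBL0137-treated lung, 113 of 2598 genes were called, none of them a Hox member. Hoxb3os went from 418 and 724 CPM to 298 and 439 CPM (log2 fold change −0.35 ± 0.42), Hoxa3 from 110 and 0 to 38.7 and 69.7 (−0.62 ± 0.72), and Hoxaas3 from 49.8 and 121 to 22.1 and 65.6 (−0.33 ± 0.83; edgeR adjusted p = 1.00 for all 3). The values of each of these 3 overlapped between treated and vehicle lungs. Of named members with too few counts to test, Hoxa2 had each treated value below each vehicle one. Hoxb5 and Hoxd3os1 went the other way. Their vehicle and treated counts were 9 and 11, 2 and 8, and 1 and 5. In vehicle lung replicate 2, 1 count is worth 60.3 CPM, so these orders are not secure. Noncoding members summed to 689 ± 220 CPM with vehicle and 492 ± 133 CPM with CBL0137, and coding ones to 165 ± 148 and 194 ± 16.1 CPM (SD, n = 2 each), a log2 ratio of −0.32 for all members. Vehicle lung replicate 2 had 15 Hox counts in all, so a change in lung was hardly detectable at this depth. The response to treatment differed between MEF and lung for none of 6 tested members (edgeR, 0.276% of 2899 genes called, no member with an unadjusted p under 0.05, DESeq2 0).

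The p53-/- MEF gave the highest Hox share of the series after CBL0137. All members together went from 1027 CPM (177 counts) untreated to 1589 CPM (856 counts) treated, a 1.55-fold ratio with an exact 95% interval of 1.31 to 1.83 and a log2 ratio of 0.63. The difference lay in the coding members, from 296 CPM (51 counts) to 882 CPM (475 counts), a ratio of 2.98 (2.23 to 4.06). Noncoding members were at 731 and 707 CPM, a ratio of 0.968 (0.789 to 1.19). With 1 library a treatment there is no replicate check, and these intervals cover counting error only and no spread between samples. Reads without molecular identifiers are not independent molecules, so the intervals may be too narrow even for counting error.

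Coding members without an annotated exon opposite them differed most, from 98.6 CPM (17 counts) to 518 CPM (279 counts), a ratio of 5.25 (3.22 to 9.14), against 1.84 (1.28 to 2.74) for coding members with one. Beside this, genes of the whole table without such an overlap took 1.502 times the share of gene counts in the treated p53-/- library that they took in the untreated one (31.0% against 20.7%). In wild-type MEF they took 19.2% and 20.7% untreated and 24.2% in both treated libraries. The part of that shift in the Hox ratios was not tested. Coding Hox members without such an overlap were also higher in treated wild-type MEF, at 58.3 and 99.0 CPM untreated and 178 and 109 CPM treated. That sum rests on 8 to 30 counts a library and was not tested.

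Among members with an untreated count, Hoxa10 had the highest ratio in p53-/- MEF, 19.8-fold, but over only 1 untreated count (5.80 CPM) against 62 treated (115 CPM). Hoxa2 went from 8 counts (46.4 CPM) to 90 (167 CPM), a 3.60-fold ratio. The limb and digit genes Hoxd10 to Hoxd13 had 0 or 1 count in each of the other libraries, all of them shallower, where the 1 count of Hoxd13 in a treated wild-type MEF library is worth 14.8 CPM against 11.1 CPM in this one. In p53-/- MEF Hoxd12 went from 0 to 16 counts, Hoxd11 from 1 to 15, Hoxd10 from 1 to 11 and Hoxd13 from 0 to 6. Over the coding members of HoxD that made 2 and 55 counts, an 8.80-fold ratio with a wide interval of 2.32 to 74.5. In HoxB, Hoxb7 went from 1 to 19 counts and Hoxb5 from 1 to 17, and HoxB coding members together gave 3.52 (1.53 to 9.94). HoxA coding members gave 2.75 (1.98 to 3.92), and HoxC coding members 1.07 on 3 and 10 counts.

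Apart from Hoxa11os, the antisense identifiers with 10 or more counts had ratios under 1. Hoxa11os and Hoxa11 stood side by side, at 162 and 286 CPM and at 104 and 178 CPM, ratios of 1.76 and 1.71. Hoxb3os was at 331 and 277 CPM while Hoxb3 was at 5.80 and 9.28 CPM on 1 and 5 counts, and Hoxb4 was at 11.6 and 18.6 CPM. Hoxaas3 was at 139 and 111 CPM and Hoxa3 at 75.4 and 123 CPM. Hoxaas2 went from 52.2 to 16.7 CPM on 9 counts in each library, and Hoxd3os1, opposite Hoxd3, from 40.6 CPM (7 counts) to 7.43 CPM (4 counts).

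Of 16 members with at least 10 counts in both p53-/- libraries together, 8 were 2-fold or more higher after treatment, against 30.9% of 4980 genes, and 2 were 2-fold or more lower, against 13.8% of genes (with 0.5 added to each count). The 8 are coding and the 2 are noncoding. Apart from Hoxb5, the 8 have no annotated exon opposite them. Of all genes without such an overlap 36.4% were 2-fold or more higher, and of those with one 26.2%. Since the treated library is deeper, members could reach 10 counts through it alone, and these counts are a description. Of the 8, Hoxa9 and Hoxd12 had no untreated count, and measured against a floor of 3 counts they were at least 1.28-fold and 1.71-fold higher.

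**Figure D4:**
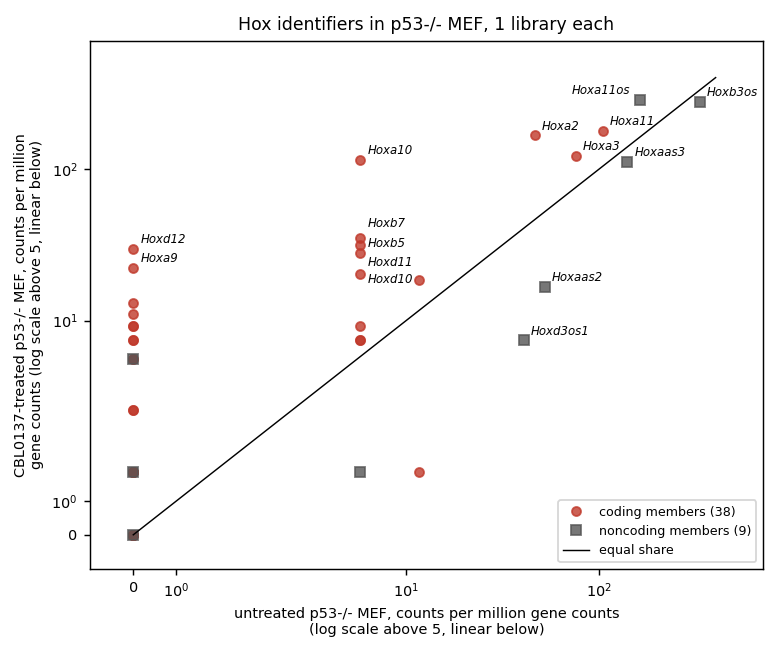
Each point is a Hox identifier, with its CPM in untreated p53-/- MEF on the x axis and in CBL0137-treated p53-/- MEF on the y axis (1 library each, log scale above 5 and linear below), and the line marks an equal share. Coding members such as Hoxa10 (5.80 to 115), Hoxa2, Hoxd10, Hoxd11 and Hoxd12 lie above the line, while Hoxb3os, Hoxaas3, Hoxaas2 and Hoxd3os1 lie below it.

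A test of the genotype over both treatments found no Hox member past the threshold. Of 7 members tested none passed with edgeR, where 1.34% of 2995 genes did. The 40 genes behind that share became 27 with upper quartile normalization and 46 with DESeq2. Their number also changed with the library left out. Of the 7 members, 4 had an unadjusted p under 0.05, as had 520 of all 2995 genes. These were Hoxa10 (log2 fold change 1.75 ± 0.78), Hoxa2 (1.30 ± 0.58), Hoxa3 (1.22 ± 0.43) and Hoxa11 (1.20 ± 0.44, SE), all higher in p53-/- MEF, with edgeR adjusted p from 0.190 to 0.277, and DESeq2 called 0 members. In untreated cells, Hoxa10 was at 5.80 CPM in p53-/- against 7.29 and 10.4 CPM in wild type, so its estimate rests on the treated p53-/- library. Hoxa11os (−0.13 ± 0.34), Hoxb3os (−0.21 ± 0.30) and Hoxaas3 (0.14 ± 0.44) were close to 0. Without the untreated p53-/- library, Hoxa11 passed at 1.92 (edgeR adjusted p = 0.0409), a contrast then of the single treated p53-/- library with wild-type MEF. Tsix, a transcript of the X inactivation center, had 0 and 1 counts in p53-/- MEF, 93 to 281 in wild-type MEF and 47 to 839 in lung. Its part in these values was not tested. Genotype, strain, embryo and the sex of the embryo, which the MEF labels do not give, cannot be told apart here.

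The effect of CBL0137 was not shown to depend on p53 for any member. Of 7 members tested for the interaction of genotype and treatment none passed with edgeR, where 0.1% of genes did, none had an unadjusted p under 0.05, and DESeq2 called 0. The estimates were 3.18 ± 1.66 for Hoxa10, 1.51 ± 0.70 for Hoxa11 and 1.13 ± 0.51 for Hoxa11os (log2, SE), with a lowest edgeR adjusted p of 0.476. This test has 1 library in each p53-/- arm, whose spread is assumed to be that of the wild-type pairs.

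Regulators of the Hox clusters were read from lists of known genes, and few had enough counts to be tested. The counts of calls below stand beside the 36.8% of all genes called between MEF and lung and are too small to set these lists apart. The strand counted is not known, so a value listed under a regulator may not read that gene. Of 32 Polycomb genes 5 were tested between MEF and lung and 2 were higher in MEF, Rbbp4 (log2 fold change 2.81, edgeR adjusted p = 4.59e-05), a histone-binding subunit, and Aebp2 (2.38, adjusted p = 0.0333), a cofactor of the same repressive complex. Of 13 Trithorax and demethylase genes 3 were tested and 1 was lower in MEF, Men1, which encodes the menin subunit of an activating complex (−3.82, edgeR adjusted p = 0.0110). Of 11 TALE homeodomain genes, which encode partners of Hox proteins, 1 was tested, of 12 upstream activators 1, and of 21 neighbours of the clusters and 7 genes of genome organisation none, and none passed. In the other 5 comparisons no gene of these lists passed.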

How the data were processed

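Per the labels, total RNA of 6 MEF and 4 lung samples was sequenced. The deposited files hold raw counts, the reads that the authors assigned to gene identifiers, as whole numbers that were not normalized. The submitters' processing notes name TopHat2 2.0.9, HTSeq, GRCm38 and mm10. Which strand was counted, and with which annotation, is not given in the sources used here. Of each file's reads, 98.8% to 99.2% were listed on no feature and left out of library sizes. Exon positions, strands and sequences came from GENCODE M21 on GRCm38, which held 94.9% of the identifiers and may not be the annotation the counting used. Gene counts per library were 16579 to 538717, and 3 counts were taken as the floor, 5.57 to 181 CPM.

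Members and lists were chosen with earlier results of these data known. Members with 20 or more counts in all, or that passed a test, are named with every library's value. Of the lists, only genes that passed a test are named. Symbols came from the annotation. Some items are not reported here.

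The quasi-likelihood test of edgeR 4.0.16 (R 4.3.3) was run over all genes in 6 comparisons, two-sided, after TMM scaling and the filterByExpr filter (count of at least 10, total of at least 15), and genes with a Benjamini-Hochberg adjusted p under 0.05 were called. Wild-type MEF against lung had one mean per group (4 groups) and compared the mean of the 2 MEF groups with that of the 2 lung groups. The test of p53-/- against wild-type MEF had treatment as a covariate, which assumes the same treatment effect in both genotypes. The script was tested on simulated data. Shares of single p53-/- libraries have exact 95% intervals. Alternatives were all reads as library size, upper quartile scaling, DESeq2 1.42.0, dropping the filter, all libraries in one fit, controls only, and each library left out. Replicate pairs differed by more than sampling noise (chi-square per degree of freedom 1.32 to 10.1), and the labels do not say whether MEF replicates came from separate embryos, so p-values measure the spread between these samples only. Python 3.11.15 and pandas 2.3.3 made the tables.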

Additional observations from a re-analysis of the deposited data

Results flagged for a closer look

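Hoxd3os1, the antisense identifier opposite Hoxd3, had 25 counts in all, and its listed values went in opposite directions with CBL0137 in the 2 sample types. In wild-type MEF it was listed at 29.2 and 15.6 CPM untreated and 0 and 3.65 CPM treated, and in lung at 4.98 and 0 CPM with vehicle and 16.6 and 8.20 CPM with CBL0137. In the vehicle lung library at 0 CPM, 1 count is worth 60.3 CPM, so that 0 cannot be ranked below the treated values. The direction in lung is therefore not settled. The difference between the sample types was not tested, since the identifier had too few counts, 0 to 4 in each of these libraries.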

How the results depend on the processing

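No paired analysis was possible because the labels give no replicate numbers. The number of members that passed stayed at 0 under all alternatives for CBL0137 in wild-type MEF, CBL0137 in lung and both interactions. Between wild-type MEF and lung it was 3, with 1 when all reads set the library size (Hoxa11os, with Hoxa11 then not tested), 4 with all 10 libraries in one fit (Hoxa10 added) and 2 to 3 with a library left out. Between genotypes it was 0, and 0 to 1 with a library left out. Hoxa11os and Hoxa11 had log2 fold changes of 7.35 to 8.62 and 4.15 to 6.31 under every alternative that tested them. Both passed with upper quartile normalization, DESeq2 and no filter. Where a filter was used, both entered only through the MEF libraries. Hoxaas3 ranged from 0.31 to 1.73 and lost the call under upper quartile normalization (1.14), DESeq2 (1.11), no filter (1.22), all reads as library size (0.97), controls only (1.53) and without 6 of the 8 libraries in turn. Other scalings moved the median of all genes between MEF and lung by −0.25 (upper quartile), −0.17 (DESeq2) and −0.41 (all reads), and the share of calls higher in MEF from 53.1% to 41.7%, 44.1% and 29.9%.

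The log2 ratio of the summed Hox share moved to 0.51 in wild-type MEF without the noncoding members. In p53-/- MEF it moved to 1.58 without them and to 1.04 with all reads as the denominator. In lung it changed sign, to 0.23 without the noncoding members and to 0.15 with TMM factors, on uncalled values. With a library left out it was −0.15 to 0.03 in wild-type MEF, −0.56 to −0.11 in lung and 0.25 to 0.45 for MEF over lung. Low counts limit all of this, since 34 of 47 members had under 20 counts and the vehicle lung libraries rest on 1 deep and 1 shallow library. The cause of these shifts was not tested.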

Other observations

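Among identifiers near the clusters that are not Hox members by name, 5730596B20Rik, opposite an exon of Hoxa3 over 292 bases, was listed at 104 to 139 CPM in wild-type MEF, 60.3 to 127 CPM in lung, and 128 CPM untreated and 18.6 CPM treated in p53-/- MEF (22 and 10 counts, 1 library each). Haglr, which overlaps the end of Hoxd3 by 21 bases on the other strand, had 0 to 2 counts per library.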
